A study of Bos taurus with 2 samples.

Results

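Leukaemia inhibitory factor (LIF) is a cytokine of the interleukin-6 family. It binds the receptor pair LIFR and gp130 (encoded by IL6ST), Janus kinases bound to that pair phosphorylate the transcription factor STAT3, and STAT3 enters the nucleus and raises a set of direct target genes. Some of these targets end the signal, and others are transcription factors that keep mouse embryonic stem cells in the naive state. In cattle, interleukin 6 acting through the same gp130 and STAT3 route is known to support the inner cell mass and the hypoblast, the layer that gives rise to the yolk sac.

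The 10 genes described here are STAT3 itself and 9 genes known as its targets in LIF-treated pluripotent cells, out of 35643 genes counted in each library. They are SOCS3, CISH, PIM1, BCL3, JUNB, KLF4, KLF5, TFCP2L1 and GBX2. They were taken by gene symbol from a list, with earlier results of these data known, and each of the 10 symbols matched exactly 1 gene in both libraries. None of the 10 overlapped another gene in the RefSeq annotation of cattle (assembly ARS-UCD2.0).

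Single-nucleus RNA-seq was carried out on 2 bovine samples, with 1 library each. The first sample was frozen 3L-blastoids, embryo models of WT genotype made by aggregating 3 bovine stem cell types in microwells, with 8 bEPSCs, 8 bXENs and 16 bTSCs per microwell. The aggregation medium held LIF at 20 ng/ml and activin A at 10 ng/ml with Chir99021, an inhibitor of the kinase GSK3, and the CEPT cocktail of survival factors, and feeder fibroblasts (iMEF) were depleted beforehand. The second sample was frozen day 8 blastocysts, also of WT genotype, and the number of structures pooled per library and the medium of the embryos are not given in the sources used here. The question the design puts to these genes is how high each one is in each lineage of a model grown in LIF and in the same lineage of the embryo.

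The blastoid library kept 1914 nuclei and 7481006 unique molecular identifiers (UMIs, each standing for 1 captured RNA molecule), with a median of 2009.5 UMIs per nucleus. The blastocyst library kept 827 nuclei and 6849933 UMIs, with a median of 7639. Levels are given as CPM (UMIs of a gene scaled to 1000000 UMIs) of the sum over the nuclei of a group, with exact 95% Poisson intervals. With 1 library per group no test of a difference between the conditions is possible, and every interval printed covers counting error only. A gene was called higher or lower where its CPM differed at least 2-fold. A single barcode sequence occurred in both libraries.

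Nuclei were clustered in each library without the marker genes, the 10 genes or the pathway genes described here. In the blastocyst a hypoblast-like cluster held 399 nuclei, a trophectoderm-like cluster held 231 (the trophectoderm is the outer layer that forms the placenta), and a cluster of 73 nuclei was left unnamed. That cluster had NANOG, a pluripotency factor, at 120.5 CPM against 20.4 CPM in the hypoblast-like cluster, and is called NANOG-bearing here. The name claims no epiblast identity, as the cluster carried 4 epiblast, 3 hypoblast and 1 trophectoderm markers. Its hypoblast marker HNF4A stood at 568.9 CPM against 545.1 CPM in the hypoblast-like cluster, and its epiblast marker OTX2 at 84.2 against 110 CPM. Summed hypoblast markers reached 5203 CPM in it and summed epiblast markers 733.5 CPM. The last 124 blastocyst nuclei were shallow, with a median of 1752 UMIs and 2.99% mitochondrial UMIs. In the blastoid a trophectoderm-like cluster held 154 nuclei, and 141 nuclei formed an unnamed cluster with 4 neural and 3 hypoblast markers, in which the axon guidance receptor DCC stood at 2541 CPM. The remaining 1619 blastoid nuclei, 84.6% of the library, were rich in ribosomal protein RNA (14.4% of their UMIs), had a median of 1926 UMIs and carried 8 trophectoderm and 10 hypoblast markers. No blastoid cluster could be called hypoblast-like or epiblast-like, so the trophectoderm-like class alone could be compared between the samples.

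The names rest on part of the marker lists. Of 28 trophectoderm markers 19 had a symbol in the files, and of these GATA2, GATA3, SLC34A2, TFAP2C and TP63 marked both trophectoderm-like clusters. In all, 7 of the 19 marked the blastoid cluster and 8 the blastocyst cluster. In the blastoid CDX2, KRT7, KRT8, KRT18, KRT19, MSX2, PTGS2 and SSLP1 marked the ribosomal-rich cluster instead. KRT18, for example, stood at 1269 CPM in the trophectoderm-like and 6249 CPM in the ribosomal-rich cluster. Summed hypoblast markers stood above summed trophectoderm markers in both trophectoderm-like clusters, at 5750 against 4237 CPM in the blastoid and 5597 against 3383 CPM in the blastocyst. Most of these hypoblast sums came from LRP2 and DAB2, at 3616 and 961 CPM in the blastoid and 3184 and 844 CPM in the blastocyst. In the hypoblast-like cluster LRP2 stood at 130 CPM and DAB2 at 49.6 CPM. Of the 28 hypoblast markers 6 were at 0 in the trophectoderm-like cluster of the blastocyst, 3 in its hypoblast-like cluster (APOB, TTR and AFP, which were among the 6) and 0 in the trophectoderm-like cluster of the blastoid. SOX17 had 0 UMIs in the trophectoderm-like and 37 in the hypoblast-like cluster of the blastocyst, and 7 in the trophectoderm-like cluster of the blastoid. Fibroblast markers summed to between 26.5 and 113 CPM in every cluster, and neural markers to 6730 CPM in the DCC-bearing cluster against at most 718 elsewhere.

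Summed over all nuclei of each library, STAT3 was the gene that differed most among the 10, and the genes that stand beside or below it in the pathway did not all follow it. Within the trophectoderm-like class KLF4 (log2 -2.85), TFCP2L1 (-2.43), SOCS3 (2.38) and PIM1 (-2.16) differed more than STAT3 (-2.02). Over whole libraries 6 of the 10 genes were at least 2-fold lower in the blastoid, where 20.8% of 19218 genes with at least 10 UMIs were. These were STAT3, TFCP2L1, KLF4, BCL3, KLF5 and PIM1. GBX2 was the 1 gene of 10 at least 2-fold higher, against 24.2% of all genes, and SOCS3, JUNB and CISH lay within 2-fold. Without the ribosomal-rich and shallow clusters 8 of the 10 were at least 2-fold lower, SOCS3 and CISH being added, where 15.9% of all genes were, and in nuclei with at least 4000 UMIs 9 were, JUNB included, where 15.7% of all genes were. GBX2 was the 1 gene at least 2-fold higher at both settings, where 22.1% and 21.9% of all genes were, in that order. The median log2 ratio over the 10 genes was -1.92, beside -0.08 over all 19218 genes and -0.25 over the 7826 genes with at least 100 UMIs in each library. The cell makeup of the libraries differed, as described above, and in such sums fewer cells of a type and less RNA per cell cannot be told apart.

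**Figure D1:**
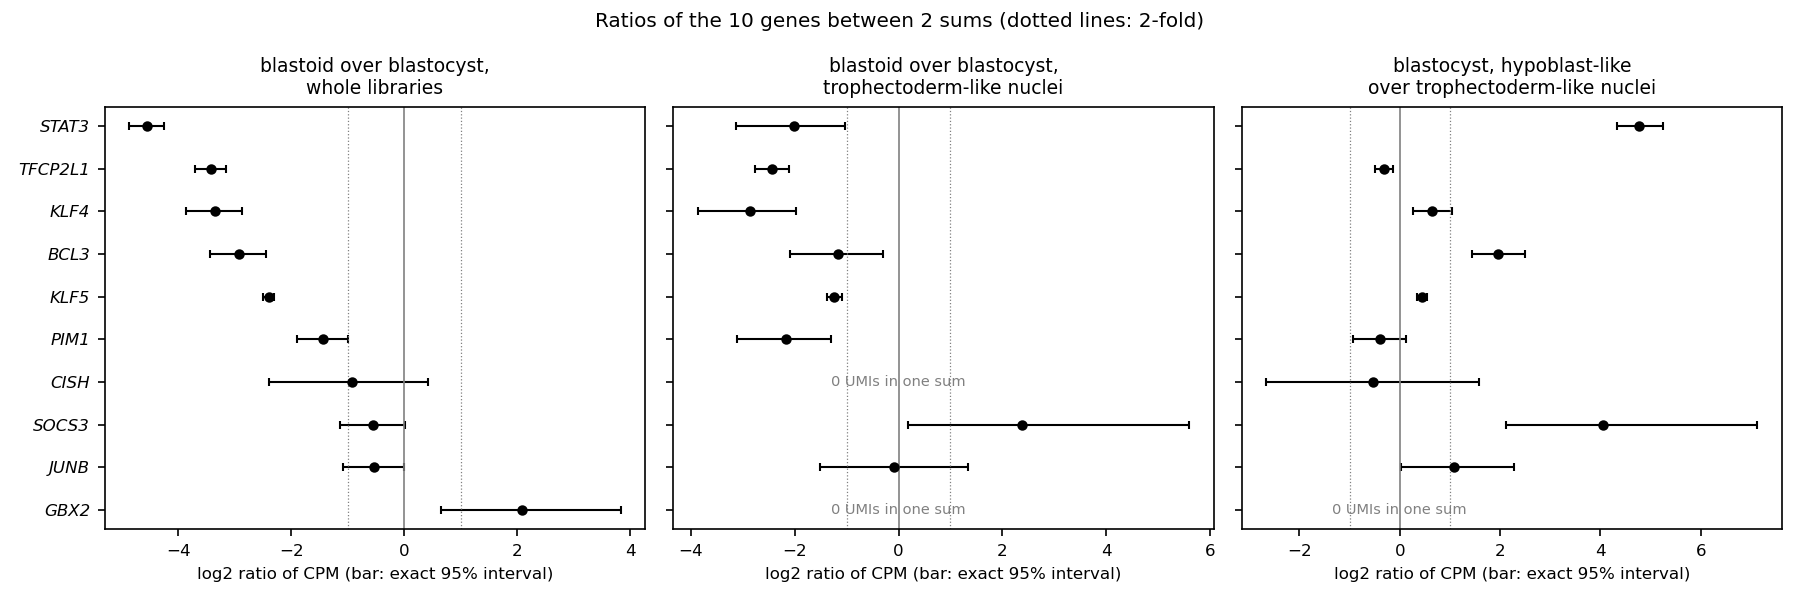
Log2 ratio of CPM, blastoid over blastocyst, for the 10 genes (rows), over whole libraries and within the trophectoderm-like class; points are ratios, bars are exact 95% intervals of counting error, and 0 means equal CPM; the right panel gives hypoblast-like over trophectoderm-like nuclei of the blastocyst. Over whole libraries STAT3 lies farthest to the left at -4.56 and GBX2 to the right at 2.07, and within the trophectoderm-like class STAT3 lies at -2.02 and SOCS3 at 2.38.

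STAT3 (ENSBTAG00000021523), the transcription factor through which LIF acts, reached 94 UMIs (12.6 CPM, 10.2 to 15.4) in the blastoid library against 2025 UMIs (296 CPM, 283 to 309) in the blastocyst library. That is 23.5-fold lower in the blastoid (interval 19.1 to 29.3). Without the ribosomal-rich and shallow clusters the log2 ratio was -4.00 in place of -4.56, a shift of about the size that a 4000-UMI minimum per nucleus gave (-3.97).

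Within the blastocyst STAT3 was far from even. It stood at 505 CPM (481 to 530) in the hypoblast-like cluster, 290.3 CPM (254 to 331) in the NANOG-bearing cluster, 171 CPM (136 to 213) in the shallow cluster and 18.4 CPM (13.3 to 24.9) in the trophectoderm-like cluster. No neighbours in this order had overlapping intervals. The hypoblast-like level was 27.5-fold the trophectoderm-like level (20.2 to 38.2), and 7 of the 42 trophectoderm-like UMIs came from a single nucleus. In the blastoid, STAT3 stood at 37.4 CPM (29.2 to 47.1) in the DCC-bearing cluster, at 4.55 CPM (2.27 to 8.14) in the trophectoderm-like cluster and at 3.795 CPM (1.96 to 6.63) in the ribosomal-rich cluster. The last pair did not differ beyond counting error, and the DCC-bearing cluster, with 71 UMIs spread over 45 nuclei, was 8.22-fold above the trophectoderm-like one (4.33 to 17.2). Within the trophectoderm-like class STAT3 was 4.04-fold lower in the blastoid (2.05 to 8.71), from 11 against 42 UMIs. The embryo level was uneven: at a finer clustering 37 UMIs fell in a trophectoderm-like group of 132 nuclei (27.0 CPM), 5.94-fold above the blastoid class (2.97 to 12.9), and 5 in a group of 99 nuclei (5.48 CPM), whose ratio to the blastoid class lay within counting error (1.20-fold, 0.328 to 3.76). That log2 ratio of -2.02 ranged from -3.29, with the shallow blastocyst cluster joined to the trophectoderm-like class, to -1.51, with nuclei gated by markers.

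**Figure D2:**
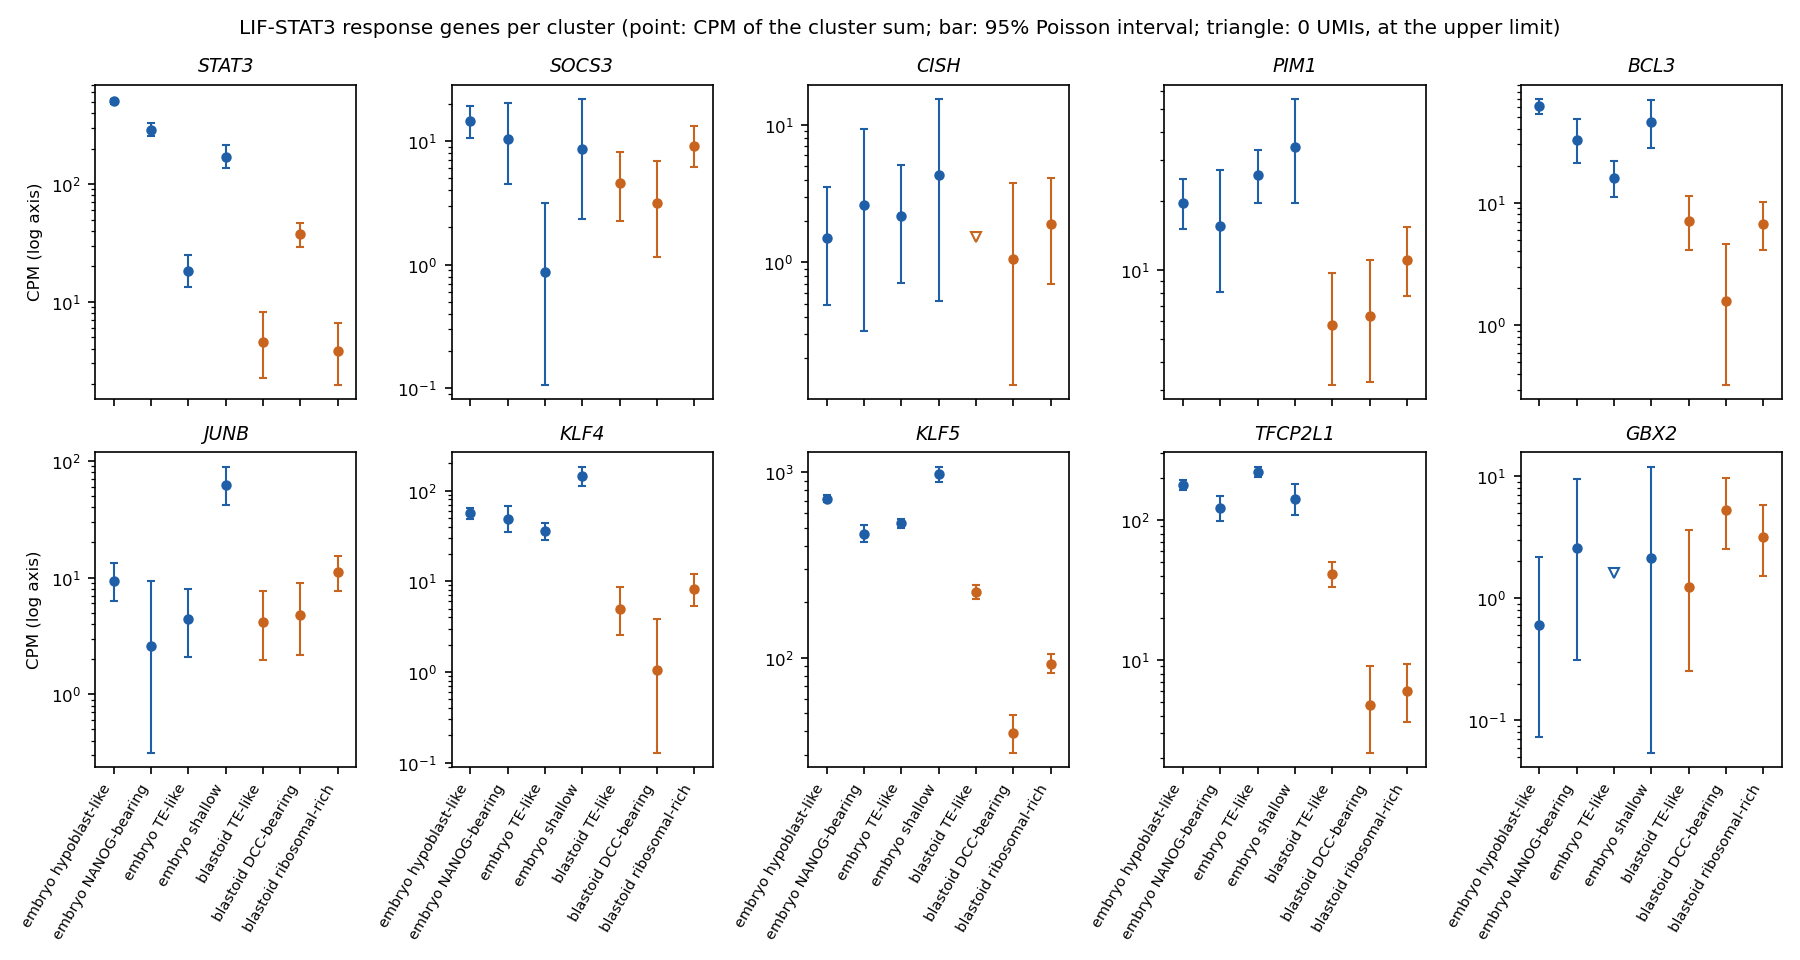
CPM of each of the 10 genes in every cluster of both libraries, on a log axis; blue is the blastocyst (embryo), orange the blastoid, TE trophectoderm; points are levels, bars are exact 95% Poisson intervals, and triangles mark 0 UMIs at the upper limit. STAT3 spans from 3.795 CPM in the ribosomal-rich blastoid cluster to 505 CPM in the hypoblast-like cluster of the blastocyst, while PIM1 stays between 5.79 and 34.3 CPM in all 7 clusters.

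The share of nuclei with a STAT3 UMI gave the same order at equal depth. With every nucleus thinned to 2000 UMIs, STAT3 was seen in 222 of 392 hypoblast-like nuclei (56.6%, exact interval 51.6 to 61.6), in 37.0% of the NANOG-bearing nuclei, and in 7 of 228 trophectoderm-like nuclei of the blastocyst (3.07%, 1.24 to 6.22). In the blastoid it was seen in 3 of 150 trophectoderm-like nuclei (2.00%, 0.414 to 5.73), in 7.14% of the DCC-bearing nuclei and in 0.583% of the ribosomal-rich ones. Without thinning the hypoblast-like share was 343 of 399 nuclei at a median of 7662 UMIs. The trophectoderm-like shares of the samples overlapped within counting error. Thinning left out 938 blastoid nuclei and 74 blastocyst nuclei that held fewer than 2000 UMIs, and no cell type known to lack these genes was at hand to measure free RNA.

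The feedback genes did not share one pattern. SOCS3 (ENSBTAG00000008441), which binds gp130 and blocks the Janus kinases, had 46 UMIs in the blastoid (6.15 CPM, 4.50 to 8.20) and 62 in the blastocyst (9.05 CPM, 6.94 to 11.6). The ratio lay within counting error over all nuclei, and its log2 value went from -0.56 to -1.21 without the ribosomal-rich and shallow clusters. By lineage the blastocyst was uneven: 48 SOCS3 UMIs fell in the hypoblast-like cluster (14.4 CPM, 10.6 to 19.1), 8 in the NANOG-bearing cluster (10.4 CPM) and 2 in the trophectoderm-like cluster (0.875 CPM, 0.106 to 3.16). The hypoblast-like over trophectoderm-like ratio was 16.5 with a wide interval of 4.32 to 140.0, and its log2 value of 4.04 ranged from 2.73 to 4.95 over the alternatives. In the blastoid 29 SOCS3 UMIs fell in the ribosomal-rich cluster (9.17 CPM, 6.14 to 13.2) and 6 in the DCC-bearing cluster (3.16 CPM). The ribosomal-rich level was 2.02-fold the trophectoderm-like level, within counting error (0.978 to 4.47). The blastoid trophectoderm-like cluster had 11 SOCS3 UMIs in 10 nuclei (4.55 CPM, 2.27 to 8.14), which is 5.19-fold higher than its embryo counterpart (1.13 to 48.2). SOCS3 was thus the 1 gene of the 8 testable ones at least 2-fold higher in the blastoid trophectoderm-like class, where 20.6% of 14989 genes were. With the shallow blastocyst cluster joined to that class, its log2 ratio was 1.06 in place of 2.38, and without the nucleus with the most SOCS3 UMIs in each class it was 3.09.

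CISH (ENSBTAG00000022622), a relative of SOCS3 best known as a brake on STAT5, was at the limit of detection. The blastoid library had 8 UMIs and the blastocyst library 14, and the ratio lay within counting error (log2 -0.93, -2.40 to 0.42). Without the ribosomal-rich and shallow clusters the log2 value was -2.02. No CISH UMI was found in the 154 blastoid trophectoderm-like nuclei and 5 were found in the 231 of the blastocyst.

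PIM1 (ENSBTAG00000000396), a serine/threonine kinase that favours survival, did not differ beyond counting error between the clusters of the blastocyst. It stood at 25.8 CPM (19.7 to 33.3) in the trophectoderm-like cluster, 19.5 CPM (15.1 to 24.9) in the hypoblast-like cluster, 15.6 CPM (8.04 to 27.2) in the NANOG-bearing cluster and 34.3 CPM (19.6 to 55.6) in the shallow cluster, and all of these intervals overlapped. In the blastoid it stood at 5.79 CPM (3.16 to 9.71) in the trophectoderm-like cluster, 6.32 CPM in the DCC-bearing cluster and 11.1 CPM in the ribosomal-rich cluster. The trophectoderm-like level was 4.46-fold lower in the blastoid (2.46 to 8.65), and the whole-library level 2.72-fold lower (2.01 to 3.73), from 61 against 152 UMIs.

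BCL3 (ENSBTAG00000009493), a nuclear IκB-family cofactor that helps sustain naive mouse stem cells, was, like STAT3, highest in the hypoblast-like and lowest in the trophectoderm-like cluster of the blastocyst. It stood at 61.0 CPM (52.9 to 70.0) in the hypoblast-like cluster, 45.0 CPM (27.8 to 68.7) in the shallow cluster, 32.4 CPM (21.0 to 47.8) in the NANOG-bearing cluster and 15.8 CPM (11.0 to 21.8) in the trophectoderm-like cluster. The first 2 steps of this order lay within counting error, and the NANOG-bearing level was 2.06-fold the trophectoderm-like level (1.18 to 3.52). Hypoblast-like nuclei were 3.87-fold above trophectoderm-like ones (2.71 to 5.69). In the blastoid its levels were 7.03 CPM in the trophectoderm-like cluster, 6.64 CPM in the ribosomal-rich cluster and 1.58 CPM, from 3 UMIs, in the DCC-bearing cluster. Over whole libraries BCL3 was 7.59-fold lower in the blastoid (5.46 to 10.8), from 41 against 285 UMIs, and within the trophectoderm-like class 2.24-fold lower (1.23 to 4.26), from 17 against 36 UMIs.

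JUNB (ENSBTAG00000012046), an AP-1 factor that LIF induces within minutes and that dissociation of tissue also induces, was highest in the shallow blastocyst cluster. It stood at 62.1 CPM there (41.6 to 89.2), at 9.32 CPM in the hypoblast-like cluster, 4.38 CPM in the trophectoderm-like cluster and 2.59 CPM, from 2 UMIs, in the NANOG-bearing cluster. Of 12 other immediate early and handling genes measured, 9 were at least 2-fold higher in the shallow than in the hypoblast-like cluster, beside 18.3% of 14238 genes, and 0 were lower, beside 19.0%. JUN, for example, was at 197 CPM in the shallow and 30.7 CPM in the hypoblast-like cluster. Their part in the JUNB level was not tested. In the trophectoderm-like class JUNB had 10 UMIs in each sample, so a difference was not detectable at this depth (log2 -0.08, -1.50 to 1.34). Joining the shallow cluster to the class turned that value into -1.78.

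The pluripotency factors KLF5, KLF4 and TFCP2L1 were present in every lineage of the blastocyst. KLF5 (ENSBTAG00000002129), a zinc-finger factor needed for both the trophectoderm and the inner cell mass in mice, had 911 UMIs in the blastoid (122 CPM, 114 to 130) and 4415 in the blastocyst (645 CPM, 626 to 664), a 5.29-fold lower level in the blastoid (4.93 to 5.69). By cluster the blastocyst held 976 CPM (889 to 1070) in the shallow cluster, 719 CPM (690 to 748) in the hypoblast-like, 529 CPM (500 to 560) in the trophectoderm-like and 465 CPM (418 to 516) in the NANOG-bearing cluster. Every step of this order lay beyond counting error, the last being the smallest at 1.14-fold (1.01 to 1.28). The blastoid order was steeper, with 225 CPM (206 to 245) in the trophectoderm-like cluster, 92.7 CPM (82.4 to 104) in the ribosomal-rich and 39.0 CPM (30.6 to 48.9) in the DCC-bearing cluster, where 21 of the 74 UMIs came from 1 nucleus. Trophectoderm-like KLF5 was 2.35-fold lower in the blastoid (2.13 to 2.61). At equal depth KLF5 was seen in 65.8% of hypoblast-like, 61.0% of trophectoderm-like and 64.4% of NANOG-bearing nuclei of the blastocyst, and in 40.0% (32.1 to 48.3) of trophectoderm-like and 5.71% of DCC-bearing nuclei of the blastoid.

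TFCP2L1 (ENSBTAG00000007765), which mediates much of LIF-driven self-renewal in mouse stem cells, had 127 UMIs in the blastoid (17.0 CPM, 14.2 to 20.2) and 1253 in the blastocyst (183 CPM, 173 to 193), 10.8-fold lower in the blastoid (8.97 to 13.0). In the blastocyst it did not have the STAT3 pattern. The trophectoderm-like cluster was the highest at 221 CPM (202 to 241), the hypoblast-like cluster was at 177 CPM (163 to 192), the shallow cluster at 141 CPM (109 to 180) and the NANOG-bearing cluster at 122 CPM (98.4 to 149). The highest level was 1.25-fold its neighbour (1.10 to 1.41), and the other steps lay within counting error. In the blastoid it was concentrated in the trophectoderm-like cluster, with 99 of the 127 UMIs (40.9 CPM, 33.3 to 49.8), against 6.01 CPM in the ribosomal-rich and 4.74 CPM in the DCC-bearing cluster. Within the trophectoderm-like class the blastoid was 5.39-fold lower (4.34 to 6.76), and the thinned share was 33.8% of the 228 blastocyst nuclei (27.7 to 40.3) and 8.67% of the 150 blastoid nuclei (4.70 to 14.4), a gap outside both intervals.

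KLF4 (ENSBTAG00000020355), one of the classical reprogramming factors and a STAT3 target in mouse stem cells, had 40 UMIs in the blastoid (5.35 CPM, 3.82 to 7.28) and 375 in the blastocyst (54.8 CPM, 49.3 to 60.6), 10.2-fold lower in the blastoid (7.38 to 14.6). Its blastocyst levels were 56.2 CPM (48.5 to 64.9) in the hypoblast-like, 49.2 CPM (34.9 to 67.6) in the NANOG-bearing and 35.9 CPM (28.5 to 44.6) in the trophectoderm-like cluster, each overlapping the next. The shallow cluster was at 145.5 CPM, with 25 of its 68 KLF4 UMIs in 1 nucleus. The blastoid trophectoderm-like cluster was at 4.96 CPM (2.56 to 8.67), 7.24-fold below its embryo counterpart (3.93 to 14.6), from 12 against 82 UMIs, and its log2 ratio went from -2.85 to -3.46 with the shallow blastocyst cluster joined to the class. The ribosomal-rich blastoid cluster was at 8.22 CPM and the DCC-bearing one at 1.05 CPM, from 2 UMIs.

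GBX2 (ENSBTAG00000008898), a homeobox factor that acts below STAT3 in mouse stem cells and later patterns the brain, was the exception in direction and was scarce in both samples. It had 23 UMIs in 20 blastoid nuclei (3.07 CPM, 1.95 to 4.61) and 5 UMIs in 5 blastocyst nuclei (0.730 CPM, 0.237 to 1.70), 4.21-fold higher in the blastoid (1.57 to 14.2). Of the 23 blastoid UMIs, 10 were in the DCC-bearing cluster (5.26 CPM, 2.52 to 9.68), 10 in the ribosomal-rich cluster (3.16 CPM) and 3 in the trophectoderm-like cluster (1.24 CPM). The DCC-bearing cluster, with its 10 UMIs in 7 nuclei and 3 of those UMIs in 1 nucleus, was 4.24-fold above the trophectoderm-like cluster (1.09 to 24.0). That cluster also carried most of the neural marker counts, and the part of those nuclei in the GBX2 level was not tested. No GBX2 UMI was found in the 231 trophectoderm-like nuclei of the blastocyst.

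Within the trophectoderm-like class, the closest matched pair, 6 of the 8 genes with at least 10 UMIs were at least 2-fold lower in the blastoid, where 14.0% of 14989 genes were. They were KLF4, TFCP2L1, PIM1, STAT3, KLF5 and BCL3, and none of their intervals included equality. JUNB lay within 2-fold, SOCS3 was higher, and GBX2 (3 and 0 UMIs) and CISH (0 and 5 UMIs) were too scarce. The median log2 ratio of the 8 genes was -1.62, beside 0.09 over all genes of the class. The median depth was 14620 UMIs per nucleus in the blastoid cluster and 8760 in the blastocyst cluster, and its part in these ratios was not tested.

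Between lineages of the blastocyst, STAT3, SOCS3, BCL3 and JUNB were at least 2-fold higher in hypoblast-like than in trophectoderm-like nuclei, 4 of the 9 genes with at least 10 UMIs against 19.2% of 15408 genes. None of the 9 was at least 2-fold lower, against 13.7% of all genes. KLF4 (1.57-fold, 1.20 to 2.06) and KLF5 (1.36-fold, 1.27 to 1.46) were higher by less than 2-fold, TFCP2L1 was 1.25-fold lower (1.10 to 1.41), and PIM1 and CISH lay within counting error. The JUNB value rested on 31 against 10 UMIs, and its log2 ratio of 1.09 was 0.89 at a minimum of 200 genes per nucleus, 0.80 at 1000 genes, 0.88 with the pathway genes kept in the clustering and 0.15 with nuclei gated by markers, all under 2-fold. Its direction turned, to a log2 ratio of -0.60, when the shallow cluster was joined to the trophectoderm-like class. The same step brought STAT3 from 4.78 to 3.51 and KLF4 from 0.65 to 0.04, while KLF4 passed 2-fold at a minimum of 4000 UMIs per nucleus (1.01) and with nuclei gated by markers (1.11). The count of genes at least 2-fold higher was between 3 and 5 at these settings.

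The NANOG-bearing cluster lay below the hypoblast-like cluster for 4 of 8 genes beyond counting error, where 9.74% of 14370 genes did, all 4 by less than 2-fold: STAT3 (1.74-fold, 1.51 to 2.01), BCL3 (1.88-fold, 1.24 to 2.98), KLF5 (1.55-fold, 1.38 to 1.73) and TFCP2L1 (1.45-fold, 1.17 to 1.83). JUNB was 3.60-fold lower, within counting error at 2 against 31 UMIs, and was the 1 gene of 8 past 2-fold, against 9.37% of all genes. None of the 8 was 2-fold higher, against 6.74% of all genes. In the blastoid, the DCC-bearing cluster had 2 of 9 genes at least 2-fold above the trophectoderm-like cluster, STAT3 and GBX2, against 21.7% of 15413 genes, and 4 of 9 at least 2-fold below it, TFCP2L1, KLF5, KLF4 and BCL3, against 17.5%.

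**Figure D3:**
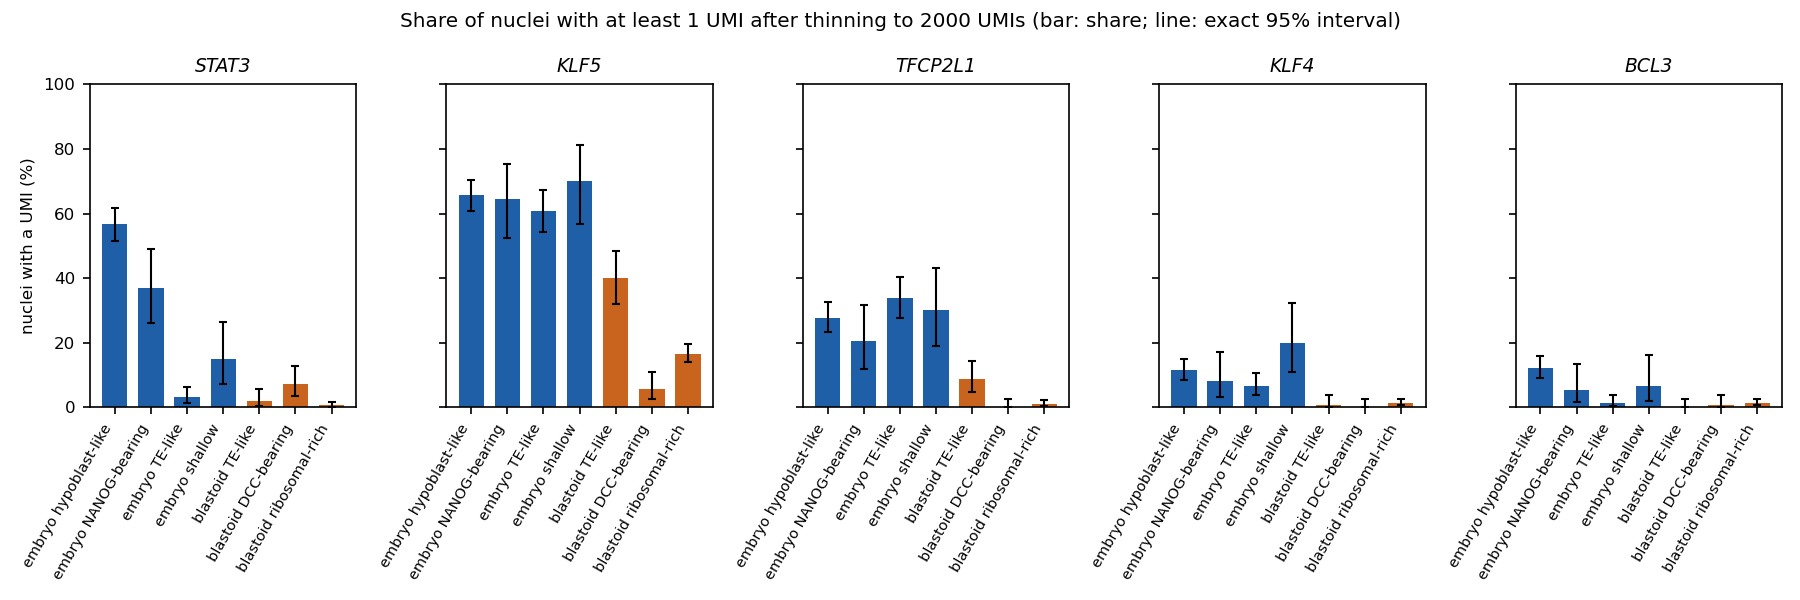
Percent of nuclei with at least 1 UMI of STAT3, KLF5, TFCP2L1, KLF4 and BCL3 after every nucleus was thinned to 2000 UMIs, by cluster (blue, blastocyst; orange, blastoid; TE, trophectoderm); bars are shares and lines exact 95% binomial intervals. KLF5 lies between 61.0% and 70.0% in all 4 blastocyst clusters and STAT3 between 3.07% and 56.6%, while in the blastoid none of the other 4 genes exceeds 8.67%.

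Counted together at equal depth, the genes were sparse in the blastoid. A hypoblast-like nucleus carried a median of 2 of the 10 genes, 6.38% of these nuclei carried none and 23.0% carried 3 or more. A trophectoderm-like nucleus of the blastocyst carried a median of 1, and 20.6% carried none. Of blastoid nuclei, 50.7% in the trophectoderm-like cluster, 73.9% in the ribosomal-rich cluster and 82.1% in the DCC-bearing cluster carried none. Hypoblast-like nuclei were also split by whether a STAT3 UMI remained after thinning. Before thinning 343 of 399 hypoblast-like nuclei had a STAT3 UMI, so most thinned nuclei without one had lost it at random. The split therefore cannot show whether the targets track STAT3 nucleus by nucleus. KLF5 was seen in 62.2% of the 222 nuclei with a STAT3 UMI and in 70.6% of the 170 without, TFCP2L1 in 24.8% and 31.8%, BCL3 in 14.0% and 10.0%, and KLF4 in 11.3% and 11.8%. These shares come from 1 library and are sparse, so they are a description only.

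Upstream of STAT3, 6 of 18 measured ligand, receptor and transducer genes were at least 2-fold higher in hypoblast-like than in trophectoderm-like nuclei of the blastocyst, where 19.2% of all genes were, and 4 were lower, where 13.7% were. LIFR, IL6ST and IL6R were among the higher, and IL6 and IL11RA among the lower. LIF itself had 0 UMIs in both libraries (3 UMIs per library would be 0.401 CPM in the blastoid). LIFR, named here because LIF was in the medium, was counted 35 times in the blastoid library and 31 times in the blastocyst library, where 21 were in the hypoblast-like, 10 in the NANOG-bearing and 0 in the trophectoderm-like cluster. IL6ST, the shared signal-transducing receptor gp130, had 834 CPM in hypoblast-like, 666 CPM in NANOG-bearing and 77.0 CPM in trophectoderm-like nuclei, a 10.8-fold gap between the first and the last (9.29 to 12.7). IL6R, the interleukin 6 receptor, had 81.8 and 13.6 CPM in hypoblast-like and trophectoderm-like nuclei, 6.03-fold apart (4.15 to 9.05). IL11RA, the interleukin 11 receptor subunit, had 3.31 CPM in hypoblast-like and 10.1 CPM in trophectoderm-like nuclei, from 11 and 23 UMIs. CNTFR, the subunit for ciliary neurotrophic factor, had 5 and 0 UMIs in these clusters and was too scarce. IL6, also named after its values were seen, lay the other way, with 35 of its 47 blastocyst UMIs in the trophectoderm-like cluster (15.3 CPM, 23 nuclei) and 8 in the hypoblast-like cluster (2.41 CPM). The blastoid trophectoderm-like cluster had 3 IL6 UMIs.

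Within the trophectoderm-like class 1 of 16 measured ligand, receptor and transducer genes was at least 2-fold higher in the blastoid, where 20.6% of all genes were, and 4 were lower, where 14.0% were. The higher one was CNTFR, with 21 UMIs (8.68 CPM) in the blastoid and 0 in the blastocyst, a ratio of 6.61 with 3 UMIs taken for the class sum of 0 and an exact lower limit of 4.92. IL6ST stood at 85.2 CPM in the blastoid and 77.0 CPM in the blastocyst (log2 0.14, -0.15 to 0.44), and IL6R at 15.3 and 13.6 CPM (log2 0.17, -0.56 to 0.91), so neither difference exceeded counting error. LIFR had 1 UMI in the blastoid class and 0 in the blastocyst class, too few to compare. JAK1, a kinase bound to gp130, was 2.58-fold lower in the blastoid class (log2 -1.37, -1.71 to -1.04).

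Over whole libraries 9 of the 23 measured ligand, receptor and transducer genes were at least 2-fold lower in the blastoid, beside 20.8% of all genes, and 5 were higher, beside 24.2%, with a median log2 ratio of -0.74. IL6ST was 8.40-fold lower (7.63 to 9.26), IL6R 6.55-fold lower, JAK1 4.48-fold, JAK2 2.60-fold and the phosphatase PTPN11 2.26-fold lower. The adaptors GRB2 (1.81-fold) and GAB1 (1.67-fold) and the kinase TYK2 (1.61-fold) were lower by less than 2-fold, STAT2 was 2.04-fold lower and STAT5B lay within counting error. CNTFR and IL11RA lay in the other direction, at 19.8-fold (11.4 to 37.6) and 4.14-fold (2.93 to 5.99) higher in the blastoid. CNTFR stood at 57.9 CPM in the ribosomal-rich and 40.5 CPM in the DCC-bearing cluster, against 8.68 CPM in the trophectoderm-like one.

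Of 13 further brakes on the pathway, 5 were at least 2-fold lower in the blastoid library, beside 20.8% of all genes, and 2 were higher, beside 24.2%, with a median log2 ratio of -0.61. SOCS1, the closest relative of SOCS3 in function, was 3.84-fold lower (2.74 to 5.47) and stood at 33.7 CPM in hypoblast-like and 6.13 CPM in trophectoderm-like nuclei of the blastocyst. It was the 1 brake of 12 measured that was at least 2-fold higher in hypoblast-like nuclei, beside 19.2% of all genes, and the other 11 lay within 2-fold. PIAS2 (3.85-fold), PIAS1 (3.09-fold), SOCS5 (2.77-fold) and SOCS6 (2.63-fold) were lower too. PIAS4 and the phosphatase PTPN1 were lower by less than 2-fold, PTPN2 and SOCS7 lay within counting error, and SOCS4 was 1.61-fold higher. Within the trophectoderm-like class none of the 12 measured brakes differed 2-fold, beside 14.0% of all genes lower and 20.6% higher. Of these 12, 5 were lower in the blastoid beyond counting error, beside 22.6% of all genes, and 7 lay within it.

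**Figure D4:**
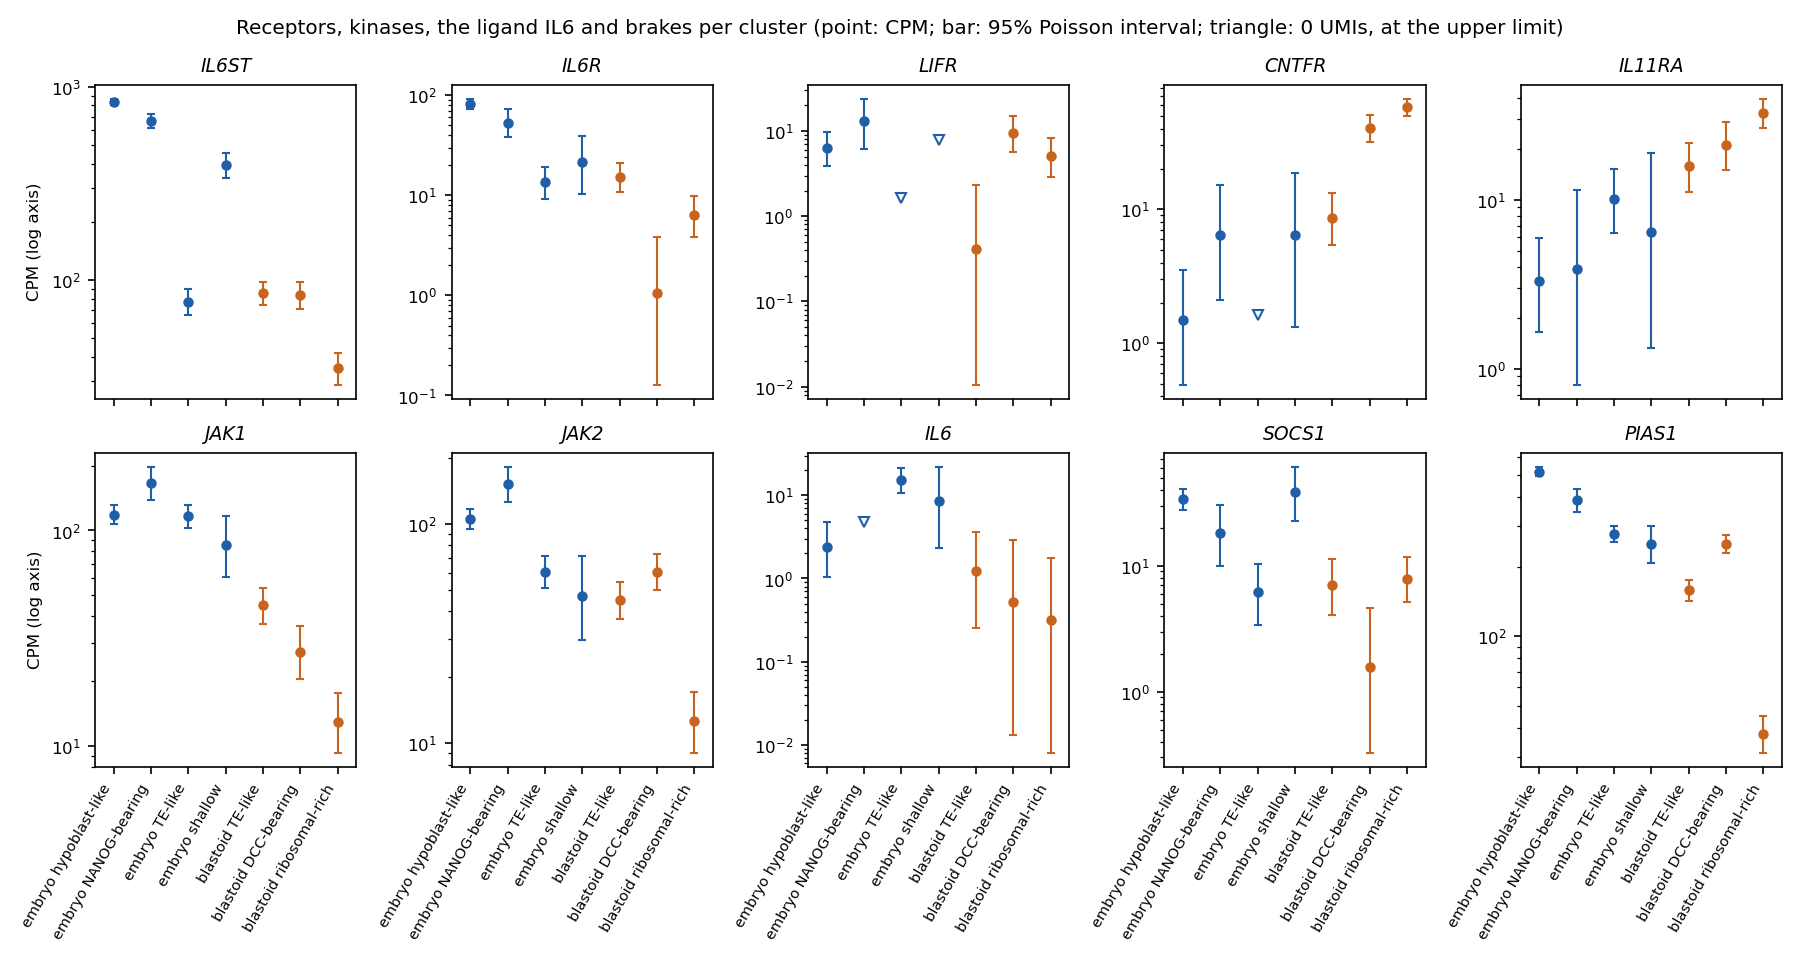
CPM of receptors, kinases, IL6 and brakes around STAT3 in every cluster of both libraries, on log axes; points are levels, bars exact 95% Poisson intervals, triangles 0 UMIs, blue the blastocyst and orange the blastoid. IL6ST lies at 834 CPM in hypoblast-like nuclei of the blastocyst and at 77.0 and 85.2 CPM in the trophectoderm-like nuclei of the blastocyst and the blastoid.

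A list of 20 other STAT3 targets had 5 genes at least 2-fold higher in the blastoid library, near the 24.2% of all genes, and 3 lower, beside 20.8%. The median log2 ratio of the list was 0.19. The cell cycle gene CCND1 was 28.2-fold higher (16.9 to 50.8), the receptor FGFR1 20.6-fold higher (15.2 to 28.4) and MYC 3.50-fold higher (2.29 to 5.51). SBNO2 (2.60-fold), the survival gene BCL2L1 (2.47-fold) and FOSL2 (1.92-fold) were lower.

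Other naive pluripotency genes were low in the blastoid library as KLF4 and TFCP2L1 were. Of 10 measured, 9 were at least 2-fold lower, beside 20.8% of all genes, and none higher, beside 24.2%, with a median log2 ratio of -2.98. DPPA3, a maternal and germline factor, was 86.8-fold lower (39.6 to 238), from 6 against 477 UMIs. The orphan nuclear receptor NR5A2 was 11.4-fold lower (8.13 to 16.3) and DPPA4 10.5-fold lower (9.41 to 11.8). DPPA2 (2.40-fold), SALL4 (2.25-fold) and ZFP42 (1.81-fold) were lower by smaller factors. In the trophectoderm-like class 5 of 8 were at least 2-fold lower, beside 14.0% of all genes, and 1, NR5A2, higher, beside 20.6%, at 30 against 8 UMIs with 17 of the 30 in 1 nucleus.

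Immediate early genes, which respond to handling as well as to LIF, mostly lay within 2-fold over whole libraries: of 14 measured, 2 were at least 2-fold lower, beside 20.8% of all genes, and 1 higher, beside 24.2%, with a median log2 ratio of 0.08. ATF3 was 3.89-fold lower and KLF6 2.33-fold lower in the blastoid, JUN lay within counting error, and FOS (1.23-fold), JUND (1.85-fold) and the chaperone gene DNAJB1 (1.91-fold) were higher.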

How the data were processed

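The authors deposited raw UMI count matrices, whole-number counts of RNA molecules per gene and nucleus, from Cell Ranger. Its version is 7.2.0 per the file headers and 7.1.0 per the submitters' processing notes, which also list Seurat 4.3.0. Per the labels' protocols, nuclei were isolated from frozen material and run on the 10x Chromium 3' v3.1 kit. The genome build, the annotation and whether intronic or stranded reads were counted are not given in the sources used here. The labels repeat the blastoid culture text for the blastocyst sample, which was not used for it.

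Barcodes with at least 500 genes and under 10% mitochondrial UMIs were kept, and Scrublet scores removed 30 blastoid and 6 blastocyst doublets (scanpy 1.11.5). Each library was clustered apart on 2000 variable genes, 30 components and 15 neighbours (Leiden, resolution 0.5). A class needed 3 markers with at least 100 UMIs and 1.5 times the CPM of the other clusters, and 1.5 times the markers of any other class. Clusters over 5% ribosomal UMIs, or with a median depth under 1/3 of their library's, were not named. The factor of 1.5 and the depth rule were set after the clusters had been seen, and at a factor of 2 the blastoid trophectoderm-like cluster has no name.

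UMIs were summed per cluster and given as CPM with exact 95% Poisson intervals, ratios with exact conditional intervals and shares with Clopper-Pearson intervals (scipy 1.17.1). Lists and backgrounds use genes with at least 10 UMIs in both sums together, and a gene at 0 enters a ratio at 3 counts. The ratio and interval code was tested on simulated data. The 10 genes, the pathway lists and the marker lists were chosen with earlier results of these data known. Named were the 10 genes, receptor, transducer and feedback genes with at least 100 UMIs, and the 3 highest and 3 lowest such genes of each other list, except 1 transducer gene that is not reported here. For each of the 10 genes with at least 100 UMIs, the 3 genes most alike over the clusters are also named. Marker genes without a symbol in the files were not analysed here, and promoter motifs were not searched.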

Additional observations from a re-analysis of the deposited data

Results flagged for a closer look

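In each library the trophectoderm-like nuclei were set against the other deep, not ribosomal-rich nuclei, and 3 of the 8 genes with at least 10 UMIs in both contrasts lay in opposite directions in the samples beyond counting error. Of all 14056 genes with as many UMIs, 7.68% did. BCL3 was higher in trophectoderm-like nuclei of the blastoid (log2 2.15, 0.36 to 4.57, from 17 against 3 UMIs) and lower in those of the blastocyst (log2 -1.82, -2.37 to -1.31). KLF4 was higher in the blastoid (log2 2.24, 0.07 to 5.44, from 12 against 2 UMIs) and lower in the blastocyst (log2 -0.61, -0.996 to -0.24). KLF5 was higher in the blastoid (log2 2.53, 2.18 to 2.90) and lower in the blastocyst (log2 -0.34, -0.44 to -0.24). The difference between the samples was not tested, since each has 1 library, and the other deep nuclei are unlike cells: the DCC-bearing cluster in the blastoid, and hypoblast-like and NANOG-bearing nuclei in the blastocyst.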

How the results depend on the processing

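A ratio, median or share was taken to have moved where it left the counting interval of its main value, which is wide for scarce genes and narrow for abundant ones, and a count where it changed by more than 1.5 times. By that measure 60 summary values of the 10 genes stayed and 5 moved, which does not show that they are stable: the 4000-UMI count of 9 genes below, against 6, is among those that stayed. Counting only genes with at least 100 UMIs left 8 of the 10 genes and a whole-library median of -2.66. It left 2 genes of the trophectoderm-like class, both of them (2) at least 2-fold lower, beside 11.4% of 7369 genes, and 2 of 6 genes at least 2-fold higher in hypoblast-like nuclei, beside 13.4% of 8059 genes, since fewer genes were measured. The STAT3 share of hypoblast-like nuclei depends on the depth by construction, at 34.0% thinned to 1000 UMIs and 75.7% thinned to 4000. Of the single-gene ratios 313 stayed, 19 moved and 1 that lay beyond counting error changed sign: JUNB, hypoblast-like over trophectoderm-like, was -0.60 with the shallow blastocyst cluster added, a choice made after seeing the data. Of ratios within counting error, 2 changed sign: CISH in the same contrast went from -0.54 to 0.57 with nuclei gated by markers, and trophectoderm-like JUNB from -0.08 to 0.11 without the nucleus with the most UMIs. Of the shares of nuclei with a UMI of a gene, 32 stayed and 26 moved, all on thinning to another depth. Also added then was leaving out the ribosomal-rich and shallow clusters, which gave 8 of 10 genes at least 2-fold lower and a median of -2.07. At a minimum of 4000 UMIs per nucleus 9 of 10 were. A class factor of 2 left no blastoid trophectoderm-like nuclei and so no value. No paired analysis was possible because each group has 1 library, and for the same reason no replicate could be left out. Depth limits SOCS3, JUNB, GBX2 and CISH most.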

Other observations

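At a finer clustering (resolution 1.0) the blastocyst hypoblast-like cluster came apart mainly into groups of 187, 113 and 104 nuclei with STAT3 at 545, 524 and 427 CPM. The group of 104 nuclei was left unnamed by the marker rule, and the hypoblast-like class then held 300 nuclei. The trophectoderm-like cluster came apart into groups of 132 and 99 nuclei with STAT3 at 27.0 CPM (19.0 to 37.2) and 5.48 CPM (1.78 to 12.8). In the same 2 groups KIT, a leading gene of the hypoblast-like cluster, stood at 40.9 and 6.57 CPM, the hypoblast factor GATA4 at 0.73 CPM (1 UMI) and 2.19 CPM (2 UMIs), and the 28 hypoblast markers summed to 5197 and 6162 CPM with 6 and 8 of them at 0. These sums include LRP2 and DAB2, which stood higher in the trophectoderm-like than in the hypoblast-like cluster. The part of these genes in the STAT3 values was not tested.

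Over the 7 clusters of both libraries the genes whose log CPM was most like that of STAT3 among 10293 genes were LARS1 (Pearson r 0.995), CDC37L1 and TMEM132D. For TFCP2L1 they were STX3, the nuclear receptor ESRRB (r 0.994) and GAK. For KLF5 they were NOL6, PLEKHG6 and ZNF408, for KLF4 PWP2, TRIB1 and RASSF1, for BCL3 PIAS4, FMNL1 and AARS1, for PIM1 CKMT1A, FAM151A and RNF8, for JUNB MAP2K3, GNL2 and TMEM199, and for SOCS3 TLE5, TRNT1 and TSKU. Among the 10 genes themselves r was 0.949 for KLF5 with TFCP2L1, 0.851 for BCL3 with STAT3 and 0.588 for TFCP2L1 with STAT3. Clusters of 1 library share its preparation, their median depth ranged from 1752 to 14620 UMIs per nucleus, and 7 points describe these clusters only.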
